A study of Mus musculus with 6 samples.

Results

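Litaf, Itga3, Wnt11 and Trpv4 are 4 genes whose RNA levels in brain endothelium split the 6 libraries of the series into a pair and the rest. They are 4 of the 54532 genes in the table and 4 of the 11277 that passed a filter on low values, and all 4 passed it. They were selected on measured values: their level in untreated M_1 and bezafibrate F_1 against the other 4 libraries, and the lack of a match between their level and the chow. The split and the chow difference are therefore given as descriptions with no test.

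Litaf encodes a zinc-binding membrane protein of late endosomes and lysosomes, named for its induction by lipopolysaccharide. It has motifs that bind the ESCRT sorting machinery and NEDD4-family ubiquitin ligases, and mutations of human LITAF cause a demyelinating neuropathy. Itga3 encodes an integrin alpha chain that pairs with the beta chain of Itgb1 and binds laminins of the vascular basement membrane. Wnt11 encodes a secreted Wnt ligand, known mainly for signalling that does not need beta-catenin and that shapes cell polarity and movement. Trpv4 encodes a calcium-permeable channel that opens with swelling, warmth, lipid mediators and flow, and in endothelium its calcium entry feeds potassium channels and nitric oxide synthase.

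RNA was sequenced from endothelial cells sorted from mouse brain as live, CD31+, CD45-, PDGFRb- cells. All mice were Df(h22q11)/+, that is, they lacked on 1 chromosome the mouse counterpart of the region lost in human 22q11.2 deletion syndrome, and were 12 to 16 weeks old; wild-type mice were not analysed here. The bezafibrate group (3 libraries: F_1, M_1 and M_2) ate chow with 0.5% bezafibrate, an activator of PPAR nuclear receptors, for 4 weeks, and the untreated group (3 libraries: F_1, F_2 and M_1) ate irradiated base chow. Each library pooled 3 brains of the same sex, and p-values reflect how pools vary. F and M in the names stand for female and male.

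The male library of the untreated group and the female library of the bezafibrate group are each the single library of their chow and sex. The split that chose the genes is thus the same split as a chow-by-sex interaction, and the 2 cannot be told apart from a difference between single pools. Xist, transcribed from the inactive X chromosome, stood at 12.1, 11.9 and 13.1 FPKM in the female libraries bezafibrate F_1, untreated F_1 and untreated F_2 and was listed at 0 in the 3 male libraries. Ddx3y, on the Y chromosome, stood at 22.1, 24.8 and 32.5 FPKM in bezafibrate M_1, bezafibrate M_2 and untreated M_1 and was listed at 0 in the 3 female libraries. The sex labels of all 6 libraries therefore match these genes.

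Depth was even, at 16858130 to 20228619 recovered reads per library. The endothelial genes Pecam1 (207 to 291 FPKM) and Cdh5 (222 to 347 FPKM) were abundant. Both were higher in the pair, at 291 FPKM or more against at most 248 for Pecam1, and 320 or more against at most 284 for Cdh5. Of 18 endothelial markers, these 2 among them, 6 had the pair on top and 3 at the bottom. Ptprc, which encodes CD45, stayed at or below 0.0349 FPKM, and Pdgfrb, the pericyte gene of the gate, lay between 6.29 and 12.2 FPKM. FPKM are reads scaled by gene length and by library size. The recovered reads over the size used for scaling gave a ratio of 1.06 in bezafibrate F_1 and 1.09 in untreated M_1, against 0.888, 0.897, 0.950 and 1.03 in bezafibrate M_1, bezafibrate M_2, untreated F_1 and untreated F_2. The ratio was higher in the pair than in each of the others, and its part in the levels of the 4 genes was not tested. In bulk libraries, fewer cells of a type and less RNA per cell cannot be told apart.

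The stretches of DNA just before the transcription starts of the 4 genes are shown because the genes move together across libraries. Each is the 250 bases before a start in RefSeq (build GRCm38.p6), written 5′ to 3′ on the strand of the gene, with letters that match a searched motif in capitals.
Litaf, chr16:10993122-10993371, minus strand: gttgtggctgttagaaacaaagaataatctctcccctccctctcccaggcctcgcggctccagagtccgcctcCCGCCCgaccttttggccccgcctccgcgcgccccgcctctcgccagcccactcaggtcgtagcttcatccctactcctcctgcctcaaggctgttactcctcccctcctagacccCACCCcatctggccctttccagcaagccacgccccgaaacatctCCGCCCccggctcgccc
Itga3, chr11:95076715-95076964, minus strand: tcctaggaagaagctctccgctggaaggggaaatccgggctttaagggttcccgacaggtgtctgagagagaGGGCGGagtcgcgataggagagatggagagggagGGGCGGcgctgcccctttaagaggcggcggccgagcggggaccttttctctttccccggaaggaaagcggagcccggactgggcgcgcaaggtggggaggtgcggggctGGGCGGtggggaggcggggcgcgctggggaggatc
Wnt11, chr7:98834862-98835111, plus strand: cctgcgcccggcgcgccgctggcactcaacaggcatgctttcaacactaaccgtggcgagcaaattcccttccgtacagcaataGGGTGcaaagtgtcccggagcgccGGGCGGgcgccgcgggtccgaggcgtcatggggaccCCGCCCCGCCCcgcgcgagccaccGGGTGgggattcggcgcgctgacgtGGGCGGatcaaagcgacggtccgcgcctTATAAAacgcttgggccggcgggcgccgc
Trpv4, chr5:114658422-114658671, minus strand: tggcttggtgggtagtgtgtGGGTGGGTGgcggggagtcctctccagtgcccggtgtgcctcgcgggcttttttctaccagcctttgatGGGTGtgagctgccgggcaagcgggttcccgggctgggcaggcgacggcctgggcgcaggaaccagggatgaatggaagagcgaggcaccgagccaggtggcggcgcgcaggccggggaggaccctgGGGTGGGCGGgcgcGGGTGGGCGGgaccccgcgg
The Litaf start used lies 73036 bases inside the span that the table gives for Litaf, which begins at a longer annotated form, and the Itga3 start lies 87 bases from the end of the table's span. RefSeq has a second start for Itga3 and for Wnt11, which were searched too and are not printed.

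Each motif was searched on both strands, and its share is of the 32851 RefSeq stretches of the same length. The letters GGGCGG, bound by SP and KLF factors, were present in 4 of the 4 stretches, at 2 positions in Litaf, 3 in Itga3, 4 in Wnt11 and 2 in Trpv4, and in 32.7% of all stretches. The 4 stretches hold 65.6% to 72.0% GC, above the upper quartile of 61.2% over all stretches. The share of 32.7% was not matched for GC, so nothing is read from the 4 of 4. The KLF motif, searched as CACCC, was present in Litaf, Wnt11 and Trpv4 and in 52.0% of all stretches, and in the Trpv4 stretch it shares letters with the SP and KLF motif. The TATA box, searched as TATAAA, was present in Wnt11 alone, 29 bases before the start, and in 12.4% of all stretches.

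The other 7 motifs were absent from these 4 windows, whose GC content was 65.6% in Litaf, 67.6% in Itga3, 70.8% in Wnt11 and 72.0% in Trpv4, against a median of 52.4% over all stretches. The AP-1 motif, searched as TGANTCA, was present in 6.75% of all stretches. The TEAD motif, searched as GGAATG, was present in 12.6% of all stretches. The E-box, searched as CACGTG, was present in 6.02% of all stretches. The core of the p53 motif, searched as CATGTC, was present in 8.17% of all stretches. The cyclic AMP response element (TGACGTCA) was present in 1.55% of them, the ETS motif (CCGGAAGT) in 2.88% and the NF-kB motif (GGACTTTCC) in 0.283%.

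Litaf (ENSMUSG00000022500, chr16:10959275-11066157, minus strand, GRCm38) had the widest spread in FPKM. It stood at 74.9, 14.1 and 15.8 FPKM in bezafibrate F_1, M_1 and M_2, and at 40.4, 46.5 and 138 FPKM in untreated F_1, F_2 and M_1. Untreated M_1 was the highest and bezafibrate F_1 the second, 1.61 times the highest of the other libraries, and the chow groups overlap. The other 4 libraries did not share a level: the untreated females averaged 43.5 FPKM and the bezafibrate males 15.0 FPKM. These levels rest on 1533 to 13187 reads, so that counting error is small beside the spread between pools. Of the Litaf exon bases, 1.84% are shared with the antisense gene Snn (13.2 to 16.7 FPKM).

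Itga3 (ENSMUSG00000001507, chr11:95044474-95076801, minus strand) had the same pair on top. It stood at 58.2, 20.7 and 19.0 FPKM in bezafibrate F_1, M_1 and M_2, and at 21.5, 33.2 and 74.9 FPKM in untreated F_1, F_2 and M_1. The pair lay 1.75 times or more above the highest of the others, which was untreated F_2.

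Wnt11 (ENSMUSG00000015957, chr7:98835112-98855195, plus strand) was the least abundant of the 4 and had the largest ratio between libraries. It stood at 14.1, 2.28 and 1.50 FPKM in bezafibrate F_1, M_1 and M_2, and at 2.63, 5.11 and 19.0 FPKM in untreated F_1, F_2 and M_1. The highest library had 12.6 times the lowest, and the lower of the pair 2.75 times the highest of the others. Its lowest value rests on 117 reads, with a 95% exact Poisson interval of 1.24 to 1.80 FPKM that covers counting error only. In the annotation, 8.80% of the Wnt11 exon bases are shared with the antisense gene Gm8398, which is listed at 0 in the 6 libraries. Whether reads were counted by strand is not given, so for Litaf and Wnt11 reads from these stretches cannot be assigned to 1 of the genes.

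Trpv4 (ENSMUSG00000014158, chr5:114622152-114658421, minus strand) was the flattest outside the pair. It stood at 45.5, 21.9 and 22.0 FPKM in bezafibrate F_1, M_1 and M_2, and at 20.8, 18.2 and 60.7 FPKM in untreated F_1, F_2 and M_1. The other 4 libraries lay within 18.2 to 22.0 FPKM, and the lower of the pair was 2.07 times the highest of them.

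**Figure D1:**
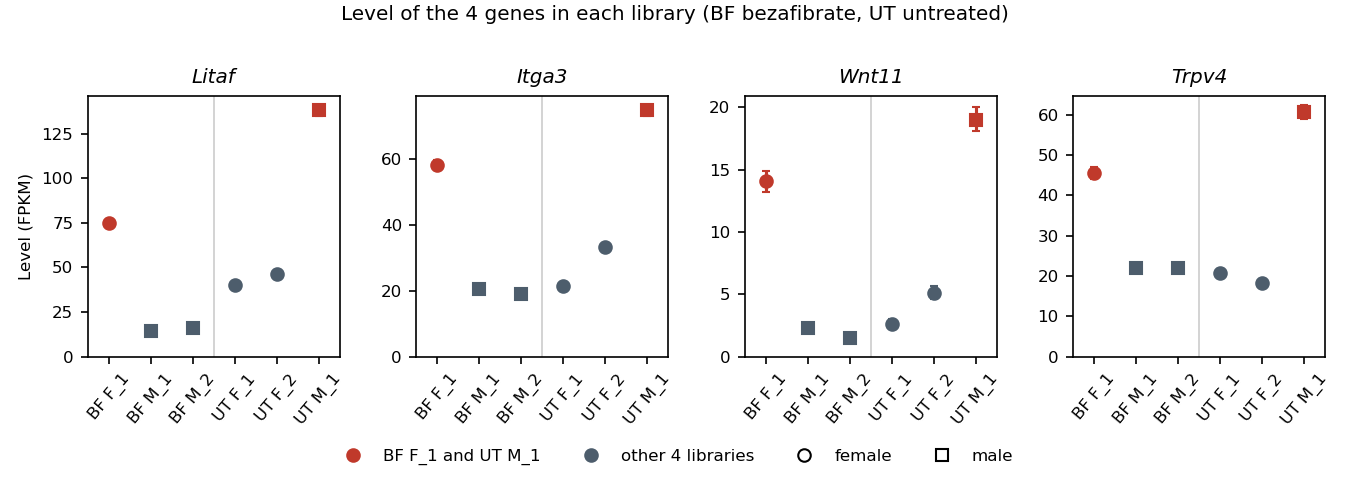
Level in FPKM (vertical axis, linear from 0) of each gene in each library, bezafibrate (BF) left of untreated (UT), with circles for females and squares for males; bars are 95% exact Poisson intervals of the reads and are mostly smaller than the points. Bezafibrate F_1 and untreated M_1 lie above the other 4 libraries for each gene. Among the other 4, the bezafibrate males lie below the untreated females for Litaf (14.1 and 15.8 against 40.4 and 46.5 FPKM) and, by less, for Itga3 and Wnt11, and above them for Trpv4.

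The 4 genes differed in size and shape within that pattern. On the log2(FPKM + 1) scale, which understates the change of low genes, the pair averaged above the others by 2.24 for Wnt11, 1.95 for Litaf, 1.48 for Itga3 and 1.31 for Trpv4. The median of all 11277 genes was 0.01. Ordered by this difference, Wnt11 ranked 4, Litaf 10, Itga3 35 and Trpv4 74 among the genes tested. Each of the 4 had both libraries above the other 4, as the rule fixed; so had 17.1% of all genes tested, while 14.8% had both below.

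Within the pair, untreated M_1 exceeded bezafibrate F_1 by 1.84 times for Litaf, 1.29 times for Itga3, 1.35 times for Wnt11 and 1.33 times for Trpv4. Among the other 4 libraries the genes parted. The bezafibrate males averaged 15.0 FPKM of Litaf against 43.5 in untreated females, 19.8 against 27.4 of Itga3, 1.89 against 3.87 of Wnt11 and 21.9 against 19.5 of Trpv4. In these 4 libraries chow and sex coincide and cannot be told apart. Over the 6 libraries, the log2 values of Itga3 and Wnt11 had a Pearson correlation of 0.997, and those of Litaf and Trpv4 one of 0.773, the lowest of the 6 pairs. These are descriptions over the libraries that chose the genes. The first principal component of all genes held 39.3% of the variance, and Itga3 and Wnt11 followed it most closely.

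Averaged over the chow groups, the 4 genes gave wide and overlapping values. Litaf averaged 35.0 ± 34.6 FPKM with bezafibrate and 74.9 ± 54.5 FPKM untreated (SD, n = 3 each), and the log2 difference was -1.27 (SE 0.686). Itga3 averaged 32.6 ± 22.2 with bezafibrate and 43.2 ± 28.0 untreated, with a difference of -0.40 (SE 0.535). Wnt11 averaged 5.95 ± 7.03 with bezafibrate and 8.92 ± 8.83 untreated, with a difference of -0.61 (SE 0.797). Trpv4 averaged 29.8 ± 13.6 with bezafibrate and 33.3 ± 23.8 untreated, with a difference of -0.03 (SE 0.473). The bezafibrate and untreated values overlapped for 4 of the 4 genes, where 8.42% of all genes tested did not overlap; nothing is read from this, since the genes were chosen with the chow in view. Without untreated M_1 the difference turned positive for Itga3 (0.09), Wnt11 (0.08) and Trpv4 (0.50) and was -0.72 for Litaf. Without bezafibrate F_1 it was -2.02 for Litaf, -0.90 for Itga3, -1.41 for Wnt11 and -0.37 for Trpv4.

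Within each sex the chow differences pointed in opposite directions. In females, where 1 bezafibrate library faces 2 untreated ones, the log2 difference was 0.78 for Litaf, 1.09 for Itga3, 1.68 for Wnt11 and 1.18 for Trpv4. In males, where 2 bezafibrate libraries face 1 untreated one, it was -3.12, -1.87, -2.80 and -1.43 for these genes. Both sets of values restate the split that chose the genes, and the interaction was not tested.

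**Figure D2:**
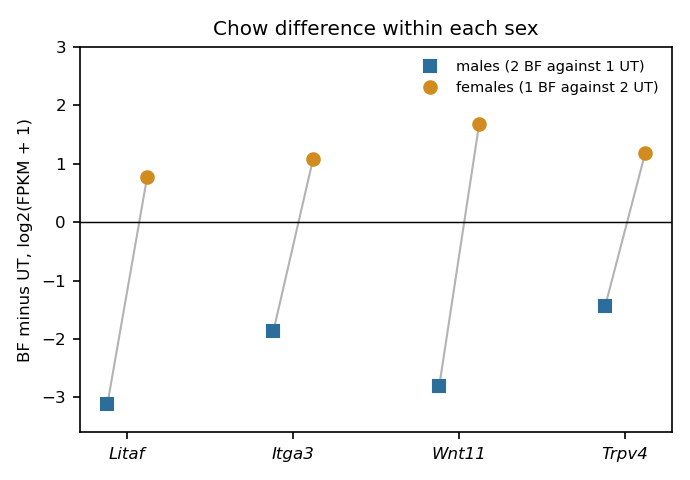
Difference between bezafibrate (BF) and untreated (UT) libraries in log2(FPKM + 1) (vertical axis) within males (squares, left of each pair) and females (circles), for each gene. Each of the 4 genes lies below 0 in males (-3.12 to -1.43) and above 0 in females (0.78 to 1.68), and each contrast rests on a single library on one side.

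The rule did not name sex, but the pair that it set apart holds 1 male and 1 female library. Such a split keeps the means of the sexes close and widens the spread within each sex. The lack of a call by sex is therefore not independent of the choice, and nothing is read from it. Litaf averaged 55.9 ± 70.9 FPKM in male and 54.0 ± 18.4 FPKM in female libraries (SD, n = 3 each). With chow as a covariate its log2 difference was -0.30 (SE 0.780), which did not pass the test (limma adjusted p = 1.00). The differences of Itga3 (-0.03, SE 0.616), Wnt11 (-0.15, SE 0.914) and Trpv4 (0.29, SE 0.533) did not pass it either (limma adjusted p = 1.00 for each). Limma called 0 of the 4 genes by sex, against 0.0266% of all genes tested: Xist, Ddx3y and Eif2s3y. At an unadjusted p under 0.05 it had 0 of the 4, against 2.94% of all genes. Limma-voom called 0 of the 4, and 4 of all 11277 genes tested. Leaving out either library of the pair moved these values strongly. Without untreated M_1 the Litaf difference was -2.25 (limma adjusted p = 0.0425, the only call for these genes under the alternatives run), and without bezafibrate F_1 it was 1.65 (0.0984).

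The partners of the 4 proteins were examined as lists, which were chosen with earlier results of these data known. Across 14 lists, 219 distinct genes were tested; limma called 0 of them by chow and limma-voom 0, against 0.00887% of all genes by limma (the microRNA gene Gm27616). At an unadjusted p under 0.05 for chow there were 13, or 5.94%, against 4.19% of all genes. Limma called 0 by sex, and at an unadjusted p under 0.05 for sex there were 5, or 2.28%, against 2.94% of all genes. Both libraries of the pair lay above the other 4 for 67 of the 219 genes and below them for 15, or 30.6% and 6.85%, against 17.1% and 14.8% of all genes. Of the 18 endothelial markers, 6 (33.3%) had both libraries of the pair above the other 4 and 3 had both below. The median difference of the partner genes was 0.14, against 0.01 for all genes. Counts and medians are descriptions, since the split was made from these libraries. Genes singled out below by value rather than by list rank were chosen after their values were seen.

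Of 14 tested integrin and tetraspanin genes, 6 had both libraries of the pair on top and 0 had both at the bottom, with a median of 0.24, and 11 of the 14 had a higher mean in the pair. Itgb1, the beta chain that Itga3 needs, stood at 223, 147 and 139 FPKM in bezafibrate F_1, M_1 and M_2, and at 162, 194 and 278 FPKM in untreated F_1, F_2 and M_1. Itgb1 thus had the same pair on top with a smaller range, at a log2 difference of 0.64. Cd151, a tetraspanin that binds laminin-binding integrins, lay between 134 and 158 FPKM in the pair and between 91.9 and 122 FPKM in the others. Itga6, another laminin-binding alpha chain, lay between 107 and 118 FPKM in the pair and between 74.8 and 97.9 FPKM in the others.

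Among 11 tested laminin genes and partners, 3 had the pair on top and 0 at the bottom. Lama5, an alpha chain of vascular laminin, stood at 94.8, 58.2 and 36.7 FPKM in bezafibrate F_1, M_1 and M_2 and at 48.4, 67.8 and 82.4 FPKM in untreated F_1, F_2 and M_1. Bezafibrate F_1 was the highest for Lama5, unlike for the 4 genes. The chains Lamb2 (0.21) and Lamc1 (0.09) overlapped between the pair and the others. Adaptors that join integrins to actin had the largest share, with 7 of 13 on top, 0 at the bottom and a median of 0.21. Fermt2, an integrin activator, lay between 194 and 214 FPKM in the pair and between 89.7 and 159 FPKM in the others, and the adaptor Pxn between 73.7 and 79.5 FPKM against 33.3 to 44.3 FPKM. Vcl, which links talin to actin and was named after its values were seen, stood at 67.8, 16.6 and 8.16 FPKM in bezafibrate F_1, M_1 and M_2 and at 16.9, 40.4 and 60.9 FPKM in untreated F_1, F_2 and M_1.

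The Wnt genes around Wnt11 did not share a direction. Of 21 ligands and secretion genes other than Wnt11, 5 passed the filter, 0 had the pair on top and 1 at the bottom. Wnt5a, another ligand of beta-catenin-independent signalling, stood at 12.2, 11.5 and 13.0 FPKM in bezafibrate F_1, M_1 and M_2 and at 5.15, 6.51 and 12.1 FPKM in untreated F_1, F_2 and M_1. Untreated M_1 thus resembled the bezafibrate libraries in Wnt5a. Notum, an enzyme that removes the lipid of Wnt proteins, lay between 15.7 and 17.8 FPKM in the pair and between 19.1 and 36.7 FPKM in the others. Wls and Porcn, needed for Wnt secretion, differed by 0.08 and -0.26 and overlapped.

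Of 11 tested Wnt receptors, 5 had the pair on top and 1 at the bottom. Fzd4, the main Frizzled of brain endothelium, lay between 91.2 and 95.1 FPKM in the pair and between 75.7 and 86.7 FPKM in the others, and the co-receptor Lrp5 between 43.4 and 43.8 against 29.3 and 35.6 FPKM. Fzd7 lay between 0.785 and 1.98 FPKM and Ror2, a receptor for non-canonical ligands, was below the filter at up to 0.482 FPKM. Of 23 polarity and non-canonical effectors, 7 had the pair on top and 4 at the bottom. Rhoa, a GTPase of the actin skeleton, lay between 110 and 141 FPKM in the pair and between 70.8 and 93.8 FPKM in the others. The genes with the pair at the bottom were Scrib, Ankrd6, Dvl2 and Vangl2, components of planar polarity.

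Few channels related to Trpv4 were expressed. Of 24 TRP and Piezo genes, 8 passed the filter, and 2 of these, Piezo1 and Trpm4, had the pair on top. Piezo1, a channel opened by membrane stretch, stood at 60.0, 27.9 and 16.7 FPKM in bezafibrate F_1, M_1 and M_2 and at 21.9, 36.2 and 51.7 FPKM in untreated F_1, F_2 and M_1. Its order within the pair was the reverse of that of Trpv4. Mcoln1, Pkd1 and Pkd2 differed by -0.05, -0.05 and -0.01, and Trpv2 was below the filter at 0.501 to 1.06 FPKM.

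Among 17 tested partners and calcium effectors of TRPV4, 5 had the pair on top and 3 at the bottom. Nos3, the endothelial nitric oxide synthase, stood at 213, 135 and 118 FPKM in bezafibrate F_1, M_1 and M_2 and at 116, 143 and 245 FPKM in untreated F_1, F_2 and M_1, with a log2 difference of 0.84. Cav1, the coat protein of caveolae, went the other way, with 86.7 to 88.8 FPKM in the pair and 89.6 to 117 FPKM in the others. Kcnn3, a calcium-activated potassium channel, was below the filter at up to 0.328 FPKM.

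Partners of LITAF in sorting to lysosomes had 10 of 25 genes with the pair on top and 1 at the bottom, at a median of 0.19. Tsg101, the ESCRT subunit that LITAF binds, lay between 27.2 and 30.7 FPKM in the pair and between 19.5 and 22.0 FPKM in the others. The ligase Itch lay between 8.78 and 9.73 against 6.94 and 8.49 FPKM. Nedd4, the ligase that binds LITAF, was the 1 gene at the bottom, with 38.7 to 40.0 FPKM in the pair and 41.6 to 47.6 FPKM in the others. Cdip1, a LITAF-like gene, differed by 0.05. Genes of the endolysosomal membrane (3 of 17 on top, 2 at the bottom) were near the background, with Lamp1 at 0.19 and Rab7 at 0.14.

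Target genes of p53 and genes of the response to lipopolysaccharide (LPS) and TNF were read over the same split. Of 19 p53 targets, 3 had the pair on top and 1 at the bottom, at a median of 0.03. Cdkn1a, the cell cycle inhibitor, lay between 387 and 436 FPKM in the pair and between 211 and 361 FPKM in the others. Pmaip1 lay between 109 and 117 against 48.9 and 87.7 FPKM. Btg2 was the 1 at the bottom, with 208 to 220 FPKM in the pair and 227 to 342 FPKM in the others. Plk2 overlapped, with a difference of -0.08. Of 22 genes of the LPS and TNF response, 5 had the pair on top and 0 at the bottom, at a median of 0.23. Rela, an NF-kB subunit, lay between 135 and 149 FPKM in the pair and between 69.0 and 103 FPKM in the others, and Icam1, a leukocyte adhesion receptor, between 34.5 and 34.6 against 11.2 and 22.6 FPKM. Nfkbia, the NF-kB inhibitor, overlapped, with a difference of 0.30.

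Lists of mechanical signalling were 6 of 17 (35.3%) on top for YAP and TEAD genes and 6 of 18 (33.3%) for the shear response. At the bottom they had 0 and 2 genes. The share on top was 17.1% over all genes and 33.3% over the endothelial markers. The shear genes on top included Cdh5 and Pecam1, which are endothelial markers as well. The YAP targets Cyr61 and Ctgf overlapped between the pair and the others, with differences of -0.03 and 0.25, while Wwtr1, which encodes the coactivator TAZ, lay between 82.7 and 89.7 against 56.3 and 77.7 FPKM. The flow-induced factors Klf2 (-0.15) and Klf4 (0.05) overlapped too.

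**Figure D3:**
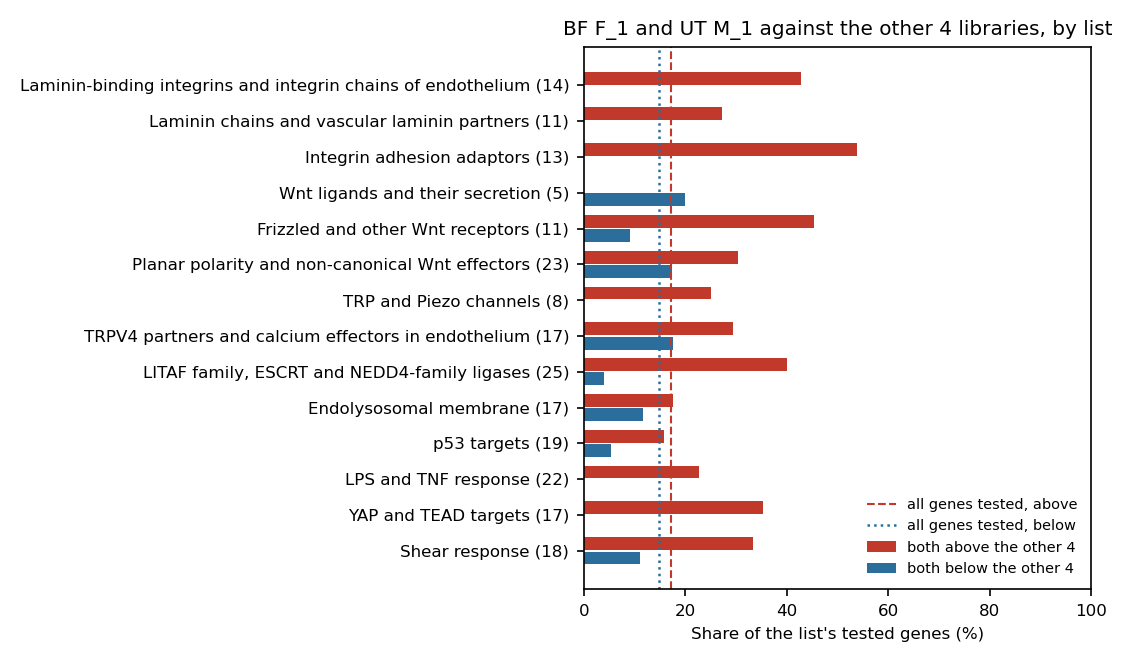
Share of the tested genes of each partner list (horizontal axis, %, number tested in brackets) with bezafibrate (BF) F_1 and untreated (UT) M_1 both above (red) or both below (blue) the other 4 libraries. The dashed and dotted lines are the shares over all genes tested, 17.1% and 14.8%. Integrin adaptors have the largest share above (7 of 13), and Wnt ligands have 0 of 5 above.

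Genes with the most similar pattern were found by correlation with the mean standardized profile of the 4 genes over the 6 libraries. Among 1414 protein-coding genes with a range of at least 1 log2 unit, 275 (19.4%) had a correlation of at least 0.9 and 128 (9.05%) of at most -0.9. Of all genes tested, without the limit on range, 733 (6.50%) had a correlation of at least 0.9. The 10 highest lay at 0.989 to 0.997 and included Ckap4, Alas1, Pafah1b1, Msn, Tmeff1, Adgrg3, Def6, Adamtsl4 and Clic4. Alas1, the rate-limiting enzyme of heme synthesis, stood at 193, 72.1 and 70.2 FPKM in bezafibrate F_1, M_1 and M_2 and at 79.9, 105 and 224 FPKM in untreated F_1, F_2 and M_1. Msn encodes moesin, which ties membrane proteins to actin, and lay between 171 and 204 FPKM in the pair and between 96.4 and 129 FPKM in the others.

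The 5 genes most unlike the 4, at -0.996 to -0.991, were Pold2, Mrps12, Degs2, Lnx2 and Ppp1r21. Mrps12, of the mitochondrial ribosome, lay between 5.59 and 6.62 FPKM in the pair and between 11.0 and 14.0 FPKM in the others.

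The nearest genes differed from member to member. Litaf was closest to Mtdh, Lrrc32 and Ccnd1 (0.991 to 0.995), and Lrrc32, which anchors latent TGF-beta at the cell surface, shared its step in the other 4 libraries, with 18.1 and 19.4 FPKM in bezafibrate M_1 and M_2 and 46.4 and 44.4 FPKM in untreated F_1 and F_2. Itga3 was closest to Clic4, Def6 and Atp8b2 (0.997 to 0.998), Wnt11 to Stk40 and Tspan9 (0.999 to 1.000) and Trpv4 to Camk2d, Tbl1x and Brox (0.989 to 0.993).

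**Figure D4:**
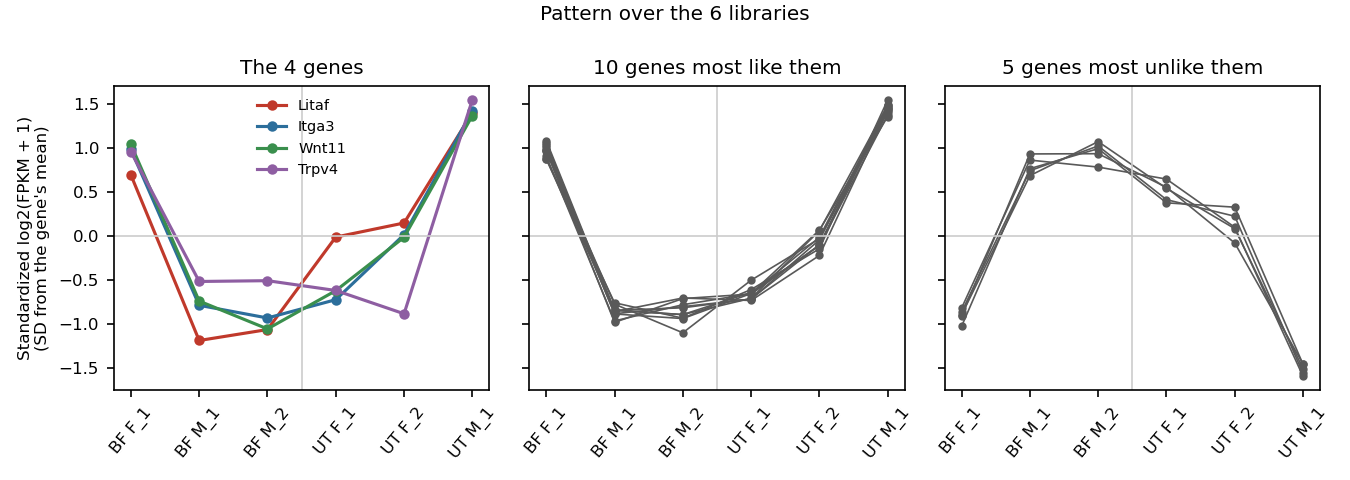
Standardized log2(FPKM + 1) (vertical axis, SD from the mean of each gene) over the bezafibrate (BF) and untreated (UT) libraries for the 4 genes, the 10 genes most like their mean and the 5 most unlike it. The lines of the 4 genes meet in bezafibrate F_1 and untreated M_1 and part in the other 4 libraries, most for Litaf and Trpv4.

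Markers of other cells in the sort were read over the same split. Of 18 endothelial markers, 6 had the pair on top and 3 at the bottom, at a median of 0.21. On average 11 were higher in the pair and 7 lower. Their summed level was 14086 to 15454 FPKM in the pair and 9750 to 13055 FPKM in the others. Slc2a1 alone made up a large part of that sum, at 5337 to 5752 FPKM in the pair and 2705 to 4430 FPKM in the others. Pericyte markers had 0 of 11 on top and 3 at the bottom, at a median of -0.31 and a sum of 205 to 256 against 207 to 370 FPKM. Astrocyte markers (0 of 12 on top, 1 at the bottom; sum 528 to 569 against 495 to 554 FPKM) and microglia and macrophage markers (0 of 7 either way; 22.7 to 37.6 against 29.1 to 33.4 FPKM) overlapped. Ependymal and choroid plexus markers had 0 of 12 on top and 1 at the bottom (459 to 476 against 421 to 1060 FPKM).

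Oligodendrocyte markers had 2 of 14 on top and 1 at the bottom, and their sum was 917 to 1062 FPKM in the pair against 436 to 610 FPKM in the others. That sum was mostly Mal, at 806 and 902 FPKM in bezafibrate F_1 and untreated M_1 against 330 to 503 FPKM in the others. Without Mal the sum was 111 to 160 FPKM against 106 to 173 FPKM. Smooth muscle (146 to 156 against 125 to 180 FPKM), fibroblast (4.64 to 5.40 against 3.54 to 5.72 FPKM) and erythrocyte markers (64.6 to 117 against 45.5 to 298 FPKM) overlapped, as did immediate early genes (22468 to 23269 against 19522 to 27457 FPKM). Neuron markers summed to 18.5 to 20.3 against 14.6 to 16.6 FPKM, with 2 of 10 passing the filter, and lymphocyte and neutrophil markers to at most 1.34 FPKM. The only neuron marker with the pair on top, Stmn2, is on the arterial list too. Venous markers had 3 of 10 on top and 0 at the bottom. Their sum was 359 to 415 FPKM in the pair against 312 to 354 FPKM in the others. It did not overlap, but the gap was narrow, at 359 FPKM in bezafibrate F_1 against 354 FPKM in untreated F_1. Icam1, a marker on this list, stood at 34.5 and 22.6 FPKM in these libraries, a wider gap than that of the sum. Arterial markers had 3 of 15 on top and 4 at the bottom (1156 to 1169 against 1020 to 1222 FPKM), and capillary markers 3 of 11 on top and 2 at the bottom (4620 to 4689 against 4265 to 4795 FPKM). The part of the endothelial, venous, pericyte, neuron and oligodendrocyte differences in the levels of the 4 genes was not tested.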

How the data were processed

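The 6 pooled libraries were analysed as named in the labels, and the column of the untreated male library was assigned through that sample's description. Per the labels' protocols, cDNA was made with SMART-Seq HT, and single-end reads of 75 bases were de-duplicated and mapped with Salmon; the submitters' processing notes name GRCm38. Neither the annotation nor the scaling nor the use of strand is stated there. The authors deposited FPKM per gene, and the deposited gene length is in bases. FPKM times length were whole multiples of 1 step in each library for 100% of values (tolerance 0.01 reads), which gave the recovered reads. Of the gene names, 27 had become dates and 27 were restored from gene IDs.

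Values were taken as log2(FPKM + 1), keeping genes that reached 1 FPKM in 3 or more libraries. Limma 3.58.1 in R 4.3.3 (lmFit, eBayes with a trend) was fitted to all of these genes, two-sided, with Benjamini-Hochberg adjustment, with a threshold of 0.05 on the adjusted p. Chow had no covariate, as the labels combine the sexes, and sex had chow as a covariate. The fit was tested on simulated data. A first check, on a single simulated draw, exceeded its limit on false calls for sex. The check was then changed to the mean over many draws with a spread that varies by gene, which it passed. The simulated noise was independent between genes, and its size was not taken from these libraries. It lacked the component that holds 39.3% of the variance here, so the check does not cover that. A planned edgeR fit was not run, since the table holds FPKM; limma-voom on recovered reads replaced it, chosen after seeing the data. The members and lists were chosen with earlier results of these data known. Named genes were the 4 highest of each list by mean FPKM, any called, those closest in pattern, and a set fixed by name; others are marked as chosen later. A gene that this rule names is not reported here. Promoter sequences are from RefSeq (GRCm38.p6), and 4 of 4 genes matched.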

Additional observations from a re-analysis of the deposited data

Results flagged for a closer look

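The chow difference of each gene had opposite signs in the 2 sexes in every library, which was not tested, since it is the split by which the genes were chosen. In females, bezafibrate minus untreated was 0.78 for Litaf, 1.09 for Itga3, 1.68 for Wnt11 and 1.18 for Trpv4 on the log2(FPKM + 1) scale. In males it was -3.12 for Litaf, -1.87 for Itga3, -2.80 for Wnt11 and -1.43 for Trpv4. Of all genes tested, 21.7% were likewise higher with bezafibrate in every female comparison and lower in every male one. Each contrast has a single library on one side.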

How the results depend on the processing

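The pair lay above the other 4 libraries on average for the 4 genes in the 11 alternatives run: 1.51 to 2.38 for Litaf, 1.30 to 1.66 for Itga3, 2.03 to 2.65 for Wnt11 and 1.10 to 1.51 for Trpv4. The yardstick here was the pooled SD within the pair and within the other 4 libraries, which differ in chow and sex. Trpv4 moved by more than this under quantile scaling (1.12) and with a library of the pair left out (1.10 to 1.51). Rescaling to TPM shifted the median of all genes to -0.16, with Litaf at 1.81, Itga3 at 1.33, Wnt11 at 2.34 and Trpv4 at 1.16. For the chow differences the yardstick was another one, the SD within the chow groups. It is wide for these genes, since each chow group holds 1 library of the pair. The chow differences moved by less than it in 17 alternatives. They ran from -2.02 to -0.72 for Litaf, -0.90 to 0.09 for Itga3, -1.41 to 0.08 for Wnt11 and -0.37 to 0.50 for Trpv4. Without untreated M_1 the sign turned for Itga3 (0.09), Wnt11 (0.08) and Trpv4 (0.50). The Trpv4 difference, near 0, was also positive with array weights (0.18), quantile scaling (0.02), without bezafibrate M_1 or M_2 (0.14 each), without the pair (0.16) and under TPM (0.09), which moved the median of all genes for chow to 0.10.

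With 1 library left out, the sex difference ran from -2.25 to 1.65 for Litaf, -1.51 to 1.45 for Itga3, -2.39 to 2.09 for Wnt11 and -1.02 to 1.59 for Trpv4. It also changed sign for Itga3 under TPM (0.00) and for Wnt11 by limma-voom (0.14); the cause was not tested. The call for Litaf without untreated M_1 has the lowest adjusted p of its alternatives, 0.0425.

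Chow called 1 gene in all, 0 by limma-voom, 0 without untreated M_1 and bezafibrate F_1 together, and 0 to 3 with 1 library left out (3 without bezafibrate F_1, 0 without bezafibrate M_1 or M_2). Sex called 3 genes, and 1 to 4 with 1 library left out (1 without bezafibrate M_1 or M_2). With the replicate block on shared names (F_1 and M_1), chow called 0 genes. The names share only a number: the deviations from group means correlated at -0.36 for F_1 and -0.30 for M_1. The planned edgeR alternative was not run. With 6 pools, 3 a group, an exact permutation test of a single value could not go below 0.1.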
